A study of Zea mays with 9 samples.

Results

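The 3 arrays described here were hybridised with RNA from the endosperm of the maize inbred line B73, collected 15 days after pollination and labelled as biological replicates. They are 3 of the 9 arrays of a series on maize endosperm. The labels name no mutant allele and no treatment for B73, and its plants were grown in the field. The labels do not say how many kernels or ears went into a sample, so the spread between arrays may hold variation between plants, between samplings or both. The arrays are described on their own, without the series' other lines, and with 1 group there is no comparison of conditions and no test.

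Each array gives 1 signal, a brightness in linear units, for each of 17621 maize probe sets, and the probe sets were ranked by their mean signal over the 3 arrays after 113 control probe sets were left out. A name could be given to 1266 probe sets, which stand for 974 genes, and the brightest probe set stands for a gene that has several. Mean signals ran from 0.809 to 27850 with a median of 246. A signal also depends on the probes that measure it, so the order of different genes describes brightness on this array and is not a measured order of transcript number. Whether the brightest probe sets were close to saturation was not tested. Where 3 signals of a gene are given they are those of replicates 1, 2 and 3, in that order, and a value with ± is the mean and SD over the 3 arrays. The results are given as 3 bands. These are the brightest 1% of probe sets, the 40th to the 60th percentile, and those near background. Near background means at or below the 95th percentile of control probe sets without a maize target.

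Endosperm is the triploid storage tissue of the cereal kernel, which feeds the embryo at germination. Its central cells fill with starch, made from imported sucrose through ADP-glucose, and with zeins, the prolamin storage proteins that collect as protein bodies inside the endoplasmic reticulum. The outer aleurone layer stores oil and globulins, and the basal transfer cells take up sugars and amino acids from the mother plant.

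The 3 arrays were similar but replicate 3 stood somewhat apart. Median signals were 245, 244 and 241 in replicates 1, 2 and 3. Across probe sets, Pearson's r of log2 signals was 0.989 for replicates 1 and 2, 0.980 for replicates 1 and 3 and 0.983 for replicates 2 and 3, a description in which genes are not independent. In replicate 3, 67 probe sets were over 2-fold above both other arrays and 93 were over 2-fold below both, against 1 and 36 in replicate 1 and 19 and 2 in replicate 2. The ratio of 3′ to 5′ signal for the actin control, which rises with RNA degradation, was 0.947, 1.04 and 1.45, and that for the EF1-alpha control was 2.10, 2.22 and 2.31. Both were highest in replicate 3, while that for the cyclophilin control was lowest there, at 1.46, 1.35 and 1.17. The background limit was higher in replicate 3, at 109, 109 and 136. This rise rests on 1 control probe set, which read 107, 109 and 227. The control with the next highest mean read 120, 109 and 114. Without replicate 3, 39 named genes were in the brightest 1%, all of them among the 41 found with it, 190 were intermediate and 236 were near background. The part of RNA quality in these differences was not tested.

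Many genes that mark the starchy part of the endosperm were bright. All 8 zeins and 10 of 17 starch synthesis genes lay in the brightest 10% of probe sets, against 18.7% of all named genes. Of the starch genes, 4 were near background, or 23.5%, against 26.6% of all named genes. Of 15 genes of photosynthesis and other green tissue functions, 10 were near background, or 66.7%, and none was in the brightest 10%. The summed signal of those 15 genes was 2107, 2218 and 1585 in replicates 1, 2 and 3, against 137235, 137493 and 135048 for the 8 zeins. In whole tissue of this kind, fewer cells of a type and less RNA per cell cannot be told apart.

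The brightest 1% of probe sets held 41 of the 974 named genes, or 4.21%, with mean signals from 8197 to 21968.5. It was 176 probe sets with 15.3% of the summed signal of all probe sets, and 127 of them had no gene name, the 9 brightest included. The brightest 10% held 182 named genes, or 18.7%, and 57.0% of the summed signal. Probe sets whose ending marks probes shared between similar transcripts, of 1 gene or of several, made up 64.2% of the brightest 1%. They made up 12.6% of all probe sets. A bright signal, zeins included, can thus hold several transcripts of 1 gene or of a family, and these were not counted apart. At the edge of this band, Scl1 was last inside with 8197 and pip2e first outside with 7666.

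**Figure D1:**
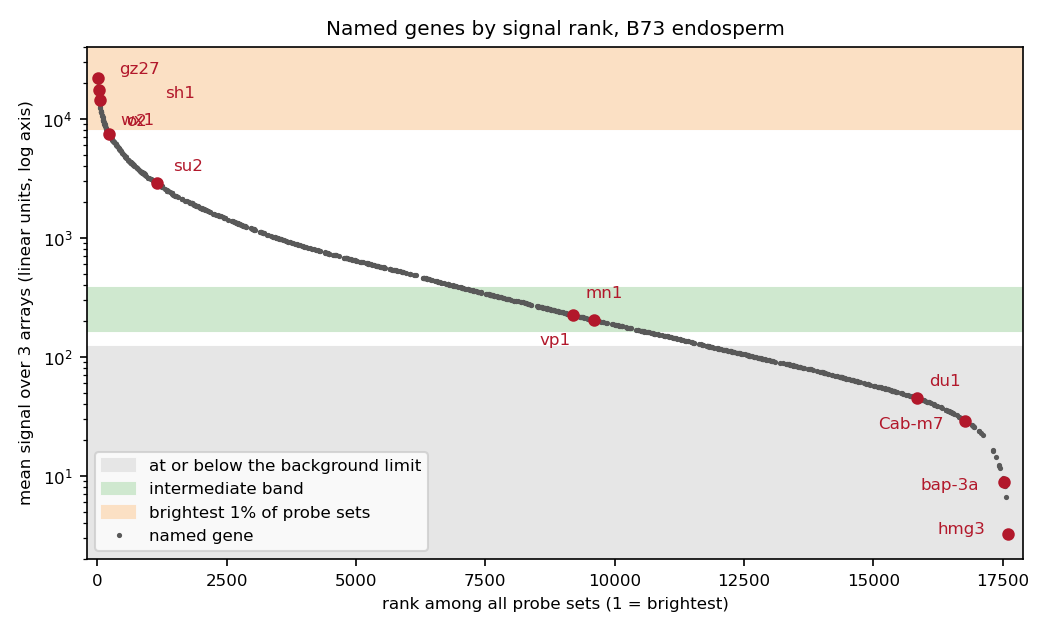
Mean signal over the 3 B73 endosperm arrays (linear units on a log axis) against rank among all 17621 probe sets, with 1 point for each named gene and 11 genes labelled. The orange, green and grey stripes mark the brightest 1%, the intermediate band and signals at or below the background limit, and gz27, sh1 and wx1 sit at the top while du1, the photosynthesis gene Cab-m7 and hmg3 lie in the grey.

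Zeins led the named genes. The brightest was gz27, a gamma-zein, with 22117, 21997 and 21791.5. The delta-zein dzs18 gave 22083, 22473 and 20765, and the gamma-zein gz50 20686, 20390.5 and 19921. The alpha-zein z1C1_4 gave 21357, 21084 and 21983. These 4 and hag, a gene whose role is left out here, at 21030.5 ± 576 (SD, n = 3), stood above every other named gene on each array. The other alpha-zeins followed, z1D_2 at 15681 ± 661, z1C1_20 at 12508 ± 278, z1C2 (the floury2 gene) at 11507 ± 242 and z1C1_12 at 11347 ± 1081. All 8 zeins were in the brightest 1%, against 4.21% of all named genes. Their median signal was 18007, against 339.8 for all named genes. Probe sets did not always give 1 picture: gz27 has others from 894 to 20470, and dzs18 from 1414 to 21002.

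The genes grp1 at 15113 ± 446 and nac4 at 9737 ± 292, whose roles are left out here, were also among the 30 brightest. Storage proteins of other families and lipid-linked proteins were bright as well. The legumin gene leg1 gave 16537, 15278.5 and 16148.5, and the globulin gene glb3 14829, 15312 and 14404. PLTP, a phospholipid transfer protein, gave 13082, 14331 and 13014, although its dimmest probe set was at 111, at background. The oleosin gene ole1, a coat protein of oil bodies, gave 8515, 9953 and 7808. The globulin gene glb1 was lower, at 3183, 3111 and 1745, with replicate 3 below both other arrays.

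Starch synthesis genes fell into a bright and a dim set. The brightest was wx1, the granule-bound starch synthase that makes amylose, with 15122.5, 13907 and 13913. The subunits of ADP-glucose pyrophosphorylase that endosperm uses were both in the brightest 1%, the large one, sh2, at 12983, 12610.1 and 13381 and the small one, bt2, at 9352, 8922 and 10316. The branching enzyme gene ae1 gave 10412, 8974 and 9995, and bt1, the carrier that brings ADP-glucose into the plastid, gave 9189, 8402 and 11768, with replicate 3 the highest. These 5 of 17 genes were in the brightest 1%, against 41 of all 974 named genes. The starch synthase ss1 at 7239 ± 646, the branching enzyme sbe1 at 5147 ± 804, Agp2 at 4354 ± 291, the starch synthase su2 and the pullulanase zpu1 completed the 10 in the brightest 10%. Of these, su2 varied most, with 1225, 2973 and 4371, and zpu1 gave 3137, 2868 and 1412; the arrays did not agree on the order of these 2 genes.

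The other 7 starch genes were much dimmer. The isoamylase iso2 had a mean of 648. The starch synthase zSSIIb at 286 and AGPLS3, a large subunit of ADP-glucose pyrophosphorylase, at 262 lay in the intermediate band. Near background were GLG1 at 86.9, the second granule-bound synthase GBSSIIa at 84.4, iso3 at 65.6 and du1, a starch synthase, at 50.3, 44.6 and 39.7 on the 3 arrays. Since du1 is known for its effect on endosperm starch, its low signal is given here as what this probe set read and not as a level of the transcript.

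In sucrose use, 1 gene, sh1, stood far above the rest by its brightest probe set, although its dimmest read 2141, below sus1 and sus2. The sucrose synthase sh1, which splits incoming sucrose, gave 18139, 16902.5 and 17372, and its highest array lay below the lowest array of gz50, the named gene ranked just above it. That was the only neighbouring pair among the 30 brightest named genes whose arrays did not overlap; the other 28 neighbouring pairs did. The sucrose synthases sus1 and sus2 were at 3585 ± 485 and 2699 ± 672, the phosphohexose isomerase phi1 at 4305 ± 564, and the fructokinases frk2 and frk1 at 2356 ± 199 and 2106 ± 234. The list had 6 of 15 genes in the brightest 10% and 3 near background. These are 40% and 20%, against 18.7% and 26.6% of all named genes. Cell-wall invertase mn1, known for its place in basal transfer cells, gave 219.7, 219 and 236, in the intermediate band, while sps1 at 119, incw3 at 67.6 and the vacuolar invertase ivr2 at 50.9 were near background.

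**Figure D2:**
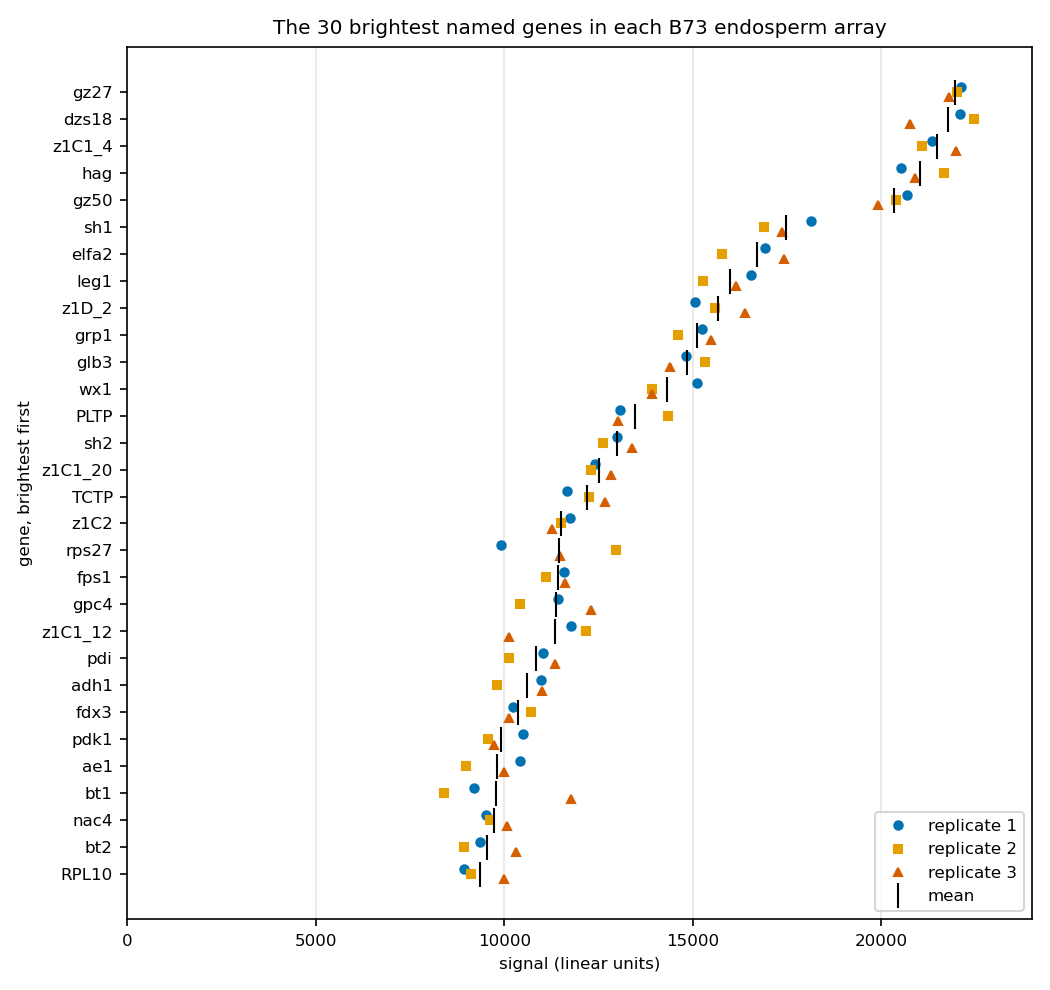
Signal (linear units) of the 30 brightest named genes in each of the 3 B73 endosperm arrays, with a vertical tick at the mean. Arrays of 1 gene lie close together against the range from 9350.2 for RPL10 to 21968.5 for gz27, with the widest spreads relative to their means for bt1 and rps27.

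Genes of glycolysis and of metabolism at low oxygen were bright as a list, with 13 of 19 in the brightest 10%. That was 68.4%, against 18.7% of all named genes. Of the 13, 7 were in the brightest 1%, which held 41 of all 974 named genes. The list's median was 4418. The glyceraldehyde-3-phosphate dehydrogenases gpc4 and gpc3 had means of 11377 ± 944 and 8816 ± 862. Alcohol dehydrogenase adh1 gave 10977, 9812.5 and 11009 and its relative adh2 281, 280.2 and 321, far below on every array. Pyruvate orthophosphate dikinase pdk1 was at 9925 ± 493, aldolase ald1 at 8834 ± 1189, and the enolases eno1 and eno2 at 8309 ± 1240.1 and 8268 ± 704. For pdk1 and eno1, another probe set of the gene was near background, at 29.5 and 11.6. The plastid dehydrogenase gpa1 at 55.8, pfk1 at 70.7 and mdh6 at 54.1 were near background, and gpn1 was at 157. In 14 of the 19 genes replicate 3 was the highest array, against 404 of all 974 named genes.

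Most genes for the machinery of protein synthesis were bright. None of 19 ribosomal protein genes and none of 14 translation factor genes was near background, against 26.6% of all named genes, or 259 of 974. Of the translation factors, 12 were in the brightest 10%, or 85.7%, against 18.7% of all named genes, and the list's median was 6774. The elongation factor gene elfa2 gave 16909, 15777 and 17409, TCTP, the translationally controlled tumour protein, 12195 ± 507, EF1-A 8955 ± 771, eif5a 7619 ± 789, eIF-4A 7582 ± 504 and tif1 7370.2 ± 924. Of the ribosomal protein genes, 13 were in the brightest 10%, or 68.4%. They were led by rps27 with 9924, 12969 and 11482 and RPL10 with 8939.7, 9129 and 9982. RPL27A at 6106, rps6-2 at 6063, rpp2a-4 at 5975 and arpp3 at 5828 followed. Outside the brightest 10% were 6 ribosomal protein genes, the dimmest of them rps21b at 273, 569 and 650.2 and RPS10 at 343, 436 and 567, and 2 translation factors, eif3 at 1873.5 and eif7 at 775. Replicate 1 was the lowest array for 18 of the 19 ribosomal protein genes, against 286 of all 974 named genes, and the list's median was 3417, 4509 and 4961 in replicates 1, 2 and 3.

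Zeins are folded in the endoplasmic reticulum, and 7 of 18 genes for chaperones and folding enzymes there were in the brightest 10%. That was 38.9%, against 18.7% of all named genes. Protein disulfide isomerase pdi gave 11023.5, 10135 and 11352. PDIL5-1, another isomerase of this family, was at 4932 ± 749, the lumenal chaperone bip1 at 4702 ± 316, calreticulin crt2 at 3941 ± 294, calnexin CNX at 3593 ± 458 and derlin1, which acts in the removal of misfolded proteins, at 2845 ± 344. Only pdi5, at 92.5, was near background, and pdi10 was intermediate at 355. Among 10 heat shock protein genes, hsp70-4 had 9055 ± 509, hsp70-5 5625 ± 907, hsp18c 2254 ± 271 and hsp18a 2179 ± 852, while hsp18 was near background at 77.7. The arrays of hsp18a were 1672, 1702 and 3163, with replicate 3 the highest.

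**Figure D3:**
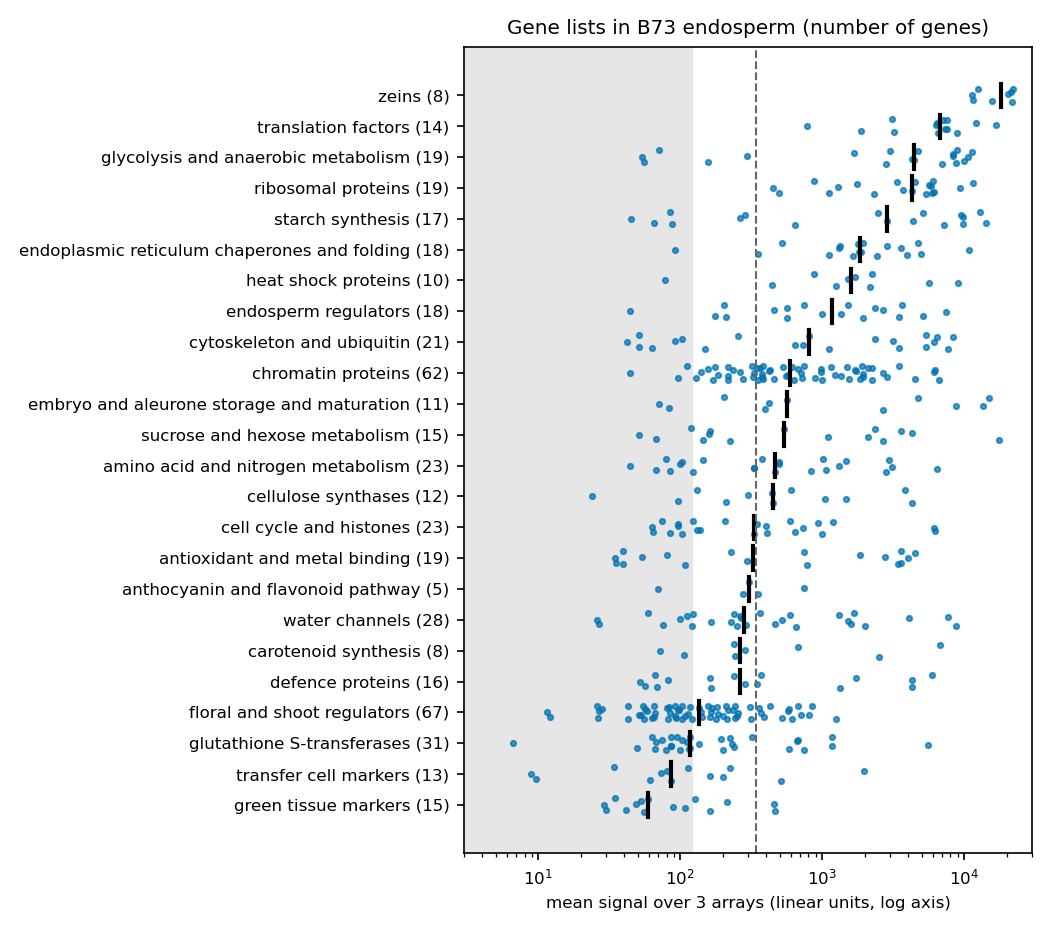
Mean signal over 3 arrays (linear units on a log axis) of each gene in the lists with at least 5 genes, ordered by the list's median, a black bar. The dashed line is the median of all named genes, 339.8, and the grey field lies at or below the background limit of 120.6. The medians of the lists for zeins, translation and glycolysis lie right of the line. Those of the green tissue and transfer cell markers, 58.9 and 86.6, lie in the grey, while single genes of several lists lie elsewhere.

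Of the 18 regulators of endosperm, 6 were in the brightest 10%, or 33.3%, against 18.7% of all named genes. None was in the brightest 1%. The bZIP factor o2, an activator of zein genes, gave 7911, 6629.8 and 7638. Its partner pbf1, a DOF factor, gave 3455, 3349.7 and 4131. FL1, a protein of the protein body membrane, was at 5139 ± 878, nfc102, a chromatin assembly factor subunit, at 3480.4 ± 353, Nkd1, a factor of aleurone identity, at 2672 ± 323 and Sal1, which limits the aleurone to a single layer, at 2336 ± 99.1. A second probe set of Nkd1 was near background, at 88.7. The receptor kinase gene cr4 at 208, the maturation factor vp1 at 204 and the Polycomb gene fie2 at 174 were intermediate, and mez3, also a Polycomb gene, was near background at 53.1, 39.5 and 39.6. The endosperm Polycomb gene fie1 reached 1942.

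Housekeeping lists held some of the other bright genes. For comparison, 18.7% of all named genes were in the brightest 10% and 26.6% were near background. In the cytoskeleton and ubiquitin list, 9 of 21 genes were in the brightest 10%, led by ubc7 at 8317 ± 603, tua4 at 7648 ± 817, tub7 at 6429 ± 376, ABP3 at 6153 ± 454, PRO4 at 5411 ± 615 and TUA1 at 5360.4 ± 338. In the same list adf1, adf2, prf1 and prf2 read 42.0, 51.4, 51.4 and 63.5, all near background, while prf5 read 3462, in the brightest 10%. The antioxidant and metal binding list had 6 of 19 in the brightest 10%, among them the superoxide dismutase sod3 at 4486 ± 507, the catalase cat1 at 4024 ± 742, the ferritin fer1 at 3573 ± 629, apx2 at 3561 ± 163 and the thioredoxin trxh1 at 2749 ± 852. The metallothionein-like gene mtl2 gave 3488, 4959.9 and 1782, and its second probe set was near background at 80.3. At the low end of this list, pox2 at 39.8, PER42 at 39.6 and aox3 at 35.5 were near background.

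The intermediate band, from 163 to 381, held 192 named genes, or 19.7%. The named genes nearest the median of all probe sets were obf3.2, dnp1, csy1, krp6, pht7, esp1, 1 of the genes annotated atGRF2, fea2, ij1 and fad7, with means between 243 and 249.8. The bZIP factor gene obf3.2 gave 249, 246 and 245, and the plastid desaturase gene fad7 277, 235 and 238. Of these 10, esp1 varied most, with 233, 476 and 36.9.

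Lists spread across this band. Anthocyanin regulators c1 and pl1, Myb factors of pigment synthesis, gave 351 and 306, and P, which controls red pigments, gave 275; f3h, an enzyme of the same pathway, was near background at 69.5. In the list for carotenoid synthesis and cleavage, vp14 at 288, dxs1 at 241 and vp9 at 240.5 were intermediate. The hydroxylase gene BCH2 at 6742 ± 429.9 and dxr at 2492 ± 220.0 were in the brightest 10%. Near background were psy2 at 72.3 and wc1 at 106. FAD8 joined fad7 at 259.5. Of 62 chromatin protein genes, 17 were intermediate and 3, or 4.84%, were near background, against 19.7% and 26.6% of all named genes. The intermediate ones included sdg113 at 374, mbd111 at 374, mbd108 at 363 and nfd102 at 352. The brightest of that list were the histone deacetylase genes hdt103 at 6602 ± 521 and hdt102 at 4471 ± 376, the linker histone gene hon101 at 6206 ± 649, and his1a at 6137 ± 828.

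Of 23 genes of amino acid metabolism, 4 were in the brightest 10% and none in the brightest 1%. The share in the brightest 10%, 17.4%, was near the 18.7% of all named genes. S-adenosylmethionine synthetase sam2 gave 6479 ± 326, the homocysteine methyltransferase HMT-3 3109 ± 332 and the glutamine synthetase gln2 2819.6 ± 138. The aspartate kinase gene akh2 at 379 and gln5 at 332 were intermediate. GLN6 at 78.9, NNR1, a nitrate reductase, at 67.2, MMT1 at 44.1 and bx1, which starts benzoxazinoid synthesis, at 84.1 were near background, and the list's median was 462.

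Of 28 water channels, 3 were in the brightest 10%, or 10.7%, against 18.7% of all named genes. The brightest was tip3a, a vacuolar channel, at 11622, 12089 and 2378; its mean of 8696 put it in the brightest 1%, although its signal in replicate 3 was far below that band. The plasma membrane channel pip2e gave 7167, 6949 and 8882 and sbip1a 4065 ± 239. The intermediate members included pip1b at 366, PIP1-1 at 292, pip2-5 at 267 and the silicon channel Lsi1 at 264. Lsi6 at 75.2, nip2b at 59.3, pip1e at 26.8 and tip4a at 26.1 were near background. Among 12 cellulose synthases, cesa5 gave 5119.6, 4564 and 3197 and cesa3 4629, 3997 and 2916, cesa2 and cesa11 were intermediate at 301 and 209, and CesA12 and cesa10 were near background at 95.6 and 23.8. Replicate 3 was the lowest array for 10 of the 12, against 358 of all 974 named genes.

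Near background, defined as a mean at or below 120.6, the 95th percentile of 17 control probe sets with no maize target, lay 259 named genes, and 217 of them were at or below the limit of each array in all 3. The limit falls between BA1 at 120.5 and cko3 at 120.7, so genes around it are not separated by it. A signal in this range says that the probe set was no brighter than the brightest of these controls, at 147. It does not say that the transcript was absent. The median of the controls was 43.3, and with that as the limit 62 named genes were near background. The 10 dimmest named genes were mrpa1, NHX6, the floral MADS-box gene zmm2, yabby15, bap-3b, bap-3a, the potassium channel gene kch4, nas2, gst18 and hmg3, with means from 14.4 for mrpa1 down to 3.23 for hmg3. The nicotianamine synthase gene nas2 gave 8.47, 5.64 and 10.5.

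Regulators of flower and shoot development were absent from the bright bands. None of 67 genes was in the brightest 10%, 19 were intermediate and 33 near background, and the list's median was 137. Over all named genes these shares were 18.7%, 19.7% and 26.6%. The highest was m25 at 1245. The genes m1 at 368, Hox2b at 360.3, m15 at 313 and ids1 at 311 were intermediate, while the leaf gene lg1 at 26.2 and yab10 at 25.9 were near background. Of 31 glutathione S-transferases, 17 were near background, or 54.8%, against 26.6% of all named genes, and the list's median was 116. The brightest was gst1, which gave 5056, 5737 and 5909. Another 6 lay above the 60th percentile, gst30 at 1175, gst31 at 1173, gst3a at 744, gst17 at 676, gst6 at 665 and gst5 at 582. With gst1, 7 of the 31 lay above it, against 462 of all 974 named genes. The genes gst13 at 319, gst2 at 237, gst42 at 232 and gst16 at 224 were intermediate, and gst41 at 66.3, gst9 at 62.9 and gst32 at 49.3 were near background.

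Defence proteins were mixed. The cystatin cc7 at 5912 ± 683, psei1 at 4284 ± 846 and prp2 at 4282 ± 639 were in the brightest 10%. Bx6, an enzyme of benzoxazinoid synthesis, at 368 and cc3 at 347 were intermediate, and chn1 at 51.8, pr5 at 56.1, mir1 at 66.1 and prp4 at 68.9 were near background. Near background lay 5 of the 16 defence genes, a share close to that of all named genes.

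Transfer cells and the embryo-surrounding region are parts of the endosperm itself, at its base and around the embryo. Of 13 transfer cell markers, 8 were near background and none was in the brightest 10%. Near background this was 61.5%, against 26.6% of all named genes. The highest was meg6 at 1724, 1844 and 2350.2, followed by betl1c at 503, 460.2 and 562, the invertase gene mn1 given above, and betl3 at 211, 228 and 156. The basal-layer antifungal genes bap-1a at 61.1, bap1-b at 34.3, bap-3b at 9.56 and bap-3a at 8.95 were near background. Of the 2 embryo-surrounding region markers, ESR1c1 was at 123, 125 and 134 and esr2 at 84.3, 59.6 and 76.2. Their part in the other results was not tested.

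Embryo and aleurone genes were higher, with 5 of 11 in the brightest 10%, or 45.5%, against 18.7% of all named genes. These 5 were glb3, PLTP, ole1, per-1 at 4743 ± 692 and glb1. The globulin gene glb2 at 47.3, 111 and 54.2 and esp5 at 82.8, 77.7 and 90.5 were near background. Replicate 3 was the lowest array for 8 of the 11, against 358 of all 974 named genes. The dehydrin gene dhn1, a maturation gene, gave 448, 638 and 173 and its relative dhn2 had a mean of 565. How much embryo or aleurone tissue was in the samples was not measured, so whether these signals come from endosperm cells was not tested.

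Among the 15 green tissue genes, psah1 and lhcb6, both of the photosystems, read highest. psah1 gave 546, 729.8 and 108, with replicate 3 near background, and lhcb6 497, 460.3 and 413. The malic enzyme me3 was intermediate at 215. psan1 at 41.4, fdx2 at 34.8, psbs1 at 29.9 and Cab-m7 at 29.1 were the dimmest.

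**Figure D4:**
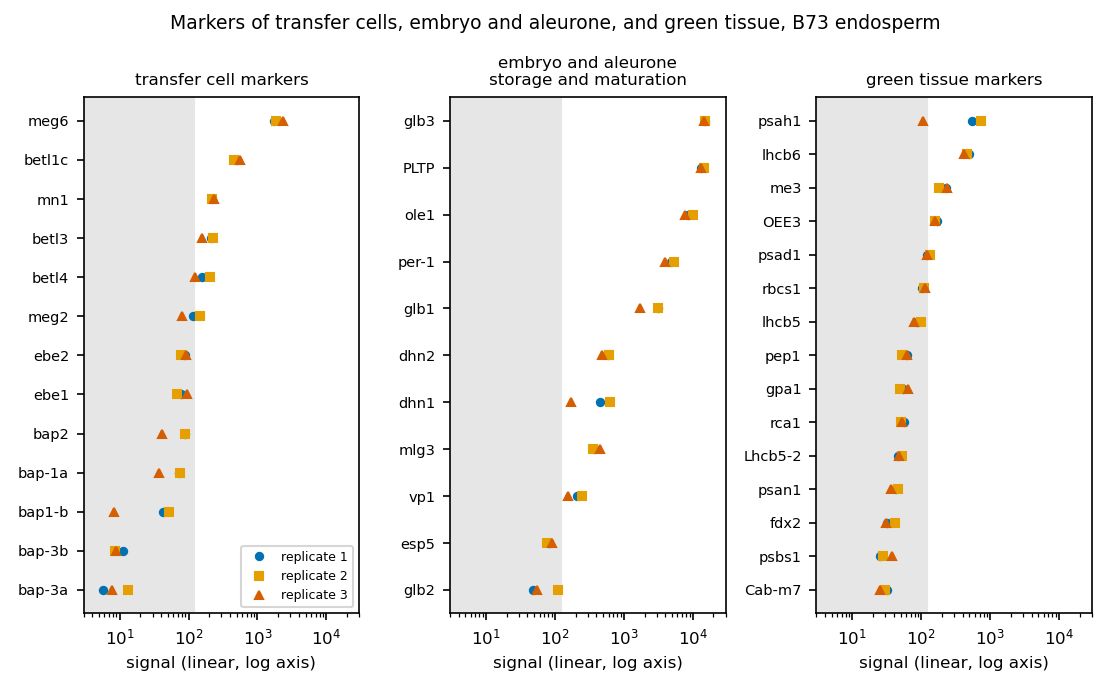
Signal in each of the 3 B73 endosperm arrays (linear units on a log axis) for markers of transfer cells, of embryo and aleurone, and of green tissue, with the grey field at or below the mean background limit of 120.6. Most green tissue and transfer cell markers lie in the grey, embryo and aleurone genes reach 14848, and psah1 and dhn1 are lower in replicate 3.

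The arrays agreed closely for most named genes. Among the 679 named genes above the limit in every array, the median coefficient of variation was 12.1%, and 36 differed over 2-fold between their highest and lowest array. In 17 of those 36 replicate 3 was the lowest, and in 16 it was the highest. The 10 most variable were nfd101, his2b5, tip3b, pcna2, col-142, tip3a, thi2, pcna1, lkrsdh1 and hmt1.

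Some genes of DNA replication and histones were among those higher in replicate 3. The nucleosome assembly gene nfd101 gave 207, 342 and 1124 and the histone H2B gene his2b5 378, 648 and 1793. Over the 62 chromatin proteins, however, replicate 3 was the highest array in 24 and the lowest in 25. The replication clamp genes pcna2 and pcna1 gave 344, 465 and 1105 and 124, 142 and 352. Of 23 genes of the cell cycle and histones, replicate 3 was the highest array in 17, against 404 of all 974 named genes, although the list's median was 240, 329 and 317 in replicates 1, 2 and 3. The homocysteine methyltransferase hmt1 was also higher there, at 214, 229 and 542, and so was col-142, at 363, 313 and 930.2. Without replicate 3 the means of nfd101, his2b5 and pcna2 were 274, 513 and 404.

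Lower in replicate 3 were 2 vacuolar water channels, a lysine-degrading enzyme and thi2. Beside tip3a, described above, its relative tip3b of the TIP3 kind, known from seed storage vacuoles, gave 1629.9, 2141 and 161. Over the 28 water channels replicate 3 was the highest array in 13 and the lowest in 6. lkrsdh1, which breaks down lysine, gave 4232, 3657 and 901. The thiamine synthesis gene thi2 gave 583, 944 and 218. Without replicate 3 the means of tip3a, tip3b and lkrsdh1 were 11855, 1886 and 3944. On all of these 4 genes replicate 3 was below both other arrays, and the cause was not tested.

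**Figure D5:**
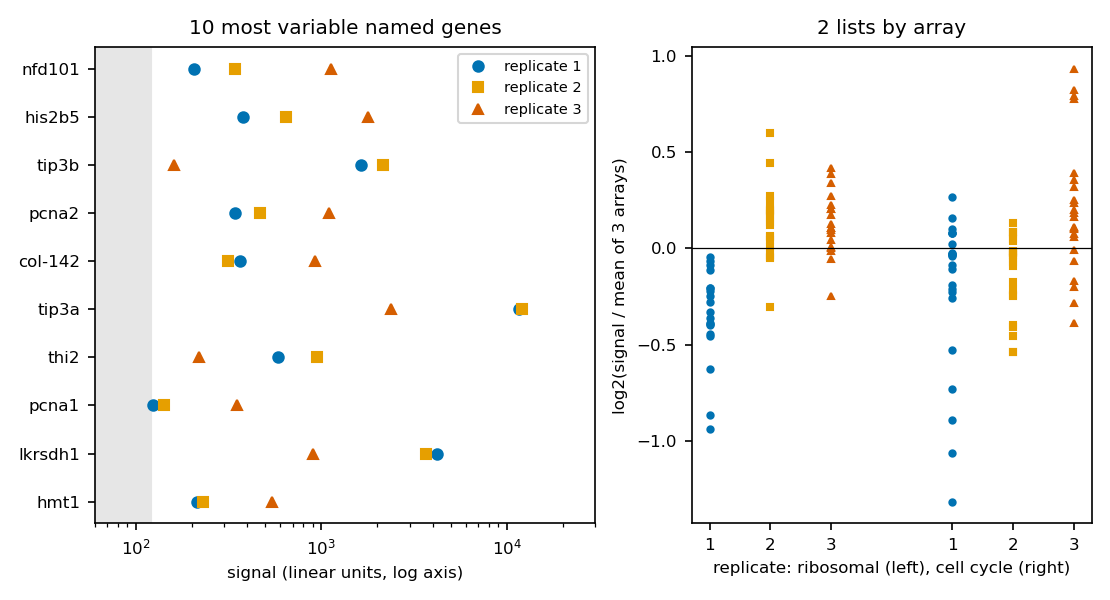
Left, signal in each array (linear units on a log axis) of the 10 most variable named genes above the background limit in every array. Right, log2 of signal over the mean of the 3 arrays for each of 19 ribosomal protein genes and 23 genes of the cell cycle and histones, where replicate 1 is lowest for 18 of the 19 ribosomal protein genes and replicate 3 highest for 17 of the 23 others.

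Several probe sets for a gene often differed. Of 184 named genes with more than 1 probe set, 101 had a brightest probe set over 1 log2 unit above the dimmest, and the median difference over the 184 genes was 1.27. In the brightest 10%, 8 genes (PLTP, TCTP, pdk1, eno1, glct1, mtl2, Nkd1 and piip1) had another probe set near background. The largest gaps among the 30 brightest were those of pdk1, at 7.77 log2 units, PLTP at 6.73 and grp1 at 6.70, whose second probe set read 129. Other genes named above also had a dimmest probe set over 1 log2 unit below the one used. Among the brightest 1% these read 2141 for sh1, 916 for elfa2, 4042 for sh2, 117 for TCTP, 2418 for ae1, 429 for EF1-A and 189.6 for ubc7. Elsewhere in the brightest 10% they read 144 for pip2e, 879 for hdt103, 129 for arpp3, 1129.7 for TUA1, 2026 for psei1, 404 for cat1, 1200.3 for CNX, 173 for dxr and 935 for hsp18c. Between the bright and intermediate bands, m25, dhn2 and lhcb6 had others down to 327, 167 and 148. Of the genes given as intermediate, c1, gst13, P, Lsi1, obf3.2, vp1, Bx6 and the atGRF2 gene had another probe set near background. These read 15.7, 2.09, 74.7, 79.6, 106, 53.3, 94.7 and 11.1, and sdg113 had another at 155. ESR1c1 had others down to 8.86. Which probe set follows the transcript was not tested.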

How the data were processed

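RNA was hybridised to an Affymetrix maize array. The values deposited by the authors are linear intensities, 1 for each probe set on each array. The submitters' processing notes name GCOS 1.4 without its role, and for the summary method and scaling nothing was found in the labels or file headers. Of the 9 arrays, the 3 of B73 were read as deposited, with no further normalization, and every array column was mapped to a sample.

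Probe sets were ranked by mean signal over the 3 arrays. The background limit was the 95th percentile of 17 control probe sets with no maize target. Names came from GEO's platform annotation (1453 probe sets annotated, 1452 with 1 gene, 1 with several, 16168 with none), updated for the 1377 probe sets found in the RefSeq gene table of assembly Zm-B73-REFERENCE-NAM-5.0; placeholders and clone names were left unnamed. The text names the 30 brightest named genes, up to 6 bright, 4 intermediate and 4 near-background genes of each of 26 lists, the 10 nearest the median, the 10 dimmest and the 10 most variable; a few further genes were named after their values were seen. The members and lists were chosen with earlier results of these data known. The lists of chromatin proteins, floral and shoot regulators and cellulose synthases, and further spellings in other lists, were added after the names and values were seen, and genes whose names are shared with another function were taken out by hand; pdk1 was left out of the green tissue list because endosperm is known to use it. Protein and promoter properties by band were planned and not analysed here. No test was run. The number of arrays limits the precision. Ranking and bands were checked on simulated data. Python 3.11.15, numpy 2.4.6, pandas 2.3.3 and matplotlib 3.10.9 were used.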

Additional observations from a re-analysis of the deposited data

How the results depend on the processing

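No paired analysis was possible because only 1 line is described and no result comes from a test. Leaving out each array in turn gave 37 to 41 named genes in the brightest 1% (41 with all arrays), 189 to 190 intermediate (192) and 236 to 271 near background (259); the brightest 10% held 8 zeins and 10 starch genes each time. The count in the brightest 1% moved by over 1.5 times where the dimmest probe set stood for a gene (24) and, by construction, for the brightest 0.5% (22) and 2% (63). The intermediate count was 101 from the 45th to the 55th percentile. Near background held 62 genes with the median control as the limit. With probe sets ending in _at alone, 4 zeins were in the brightest 10%, which are all 4 zeins that have such a probe set, and only 14 of the 30 brightest named genes were shared with those reported. Taking medians, log2 means, scaled or quantile-normalized arrays left 39 to 41 genes in the brightest 1%. Of 604 counts of list members under alternatives, 553 stayed within 1.5 times. A mean of 3 values cannot move by more than 1 SD when 1 is left out, so single genes were compared by fold: without replicate 3 the means of nfd101, his2b5, nfd106, col-142, pcna2 and pcna1 were over 1.5 times lower, and without replicate 2 those of esp1 (135, against 249) and wip1 (108, against 162). Signals near the limit cannot be ordered.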

Other observations

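Some bright named genes belong to none of the lists. The farnesyl diphosphate synthase gene fps1, which makes a precursor of sterols, gave 11585, 11099.7 and 11607 in replicates 1, 2 and 3. The ferredoxin gene fdx3, of the kind found in tissues that do not photosynthesise, gave 10226, 10719 and 10136, while the leaf ferredoxin gene fdx2 was near background. The adenine nucleotide translocator genes ANT-G2 and ANT-G1, carriers of the mitochondrial membrane, gave 4729.8, 4489.9 and 5214 and 4149, 3954 and 4423. The calmodulin gene CaM1 gave 3932, 4521 and 4312. These genes were picked after their values were seen.

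The malic enzyme gene me2 gave 7422, 6290.2 and 5866, in the brightest 10%, and its relative me3 was in the intermediate band. The vacuolar pyrophosphatase gene vpp3 gave 4839.8, 4298 and 4200.1. The sterol methyltransferase gene smt1, which acts after fps1 in sterol synthesis, gave 4128, 3762 and 4719.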
